A study of Mus musculus with 22 samples.

Results

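Transcripts of 7 subunits of the GABA A receptor, Gabra2, Gabra3, Gabra4, Gabra5, Gabrb1, Gabrb2 and Gabrd, were measured in Ts66Yah and wild-type (wt) mice, in hippocampus (HIP) and in entorhinal cortex (EC). The genes were chosen by symbol, for their place in the discussion of inhibition in trisomic hippocampus, and each symbol matched 1 of the 55385 genes in the count table. They are 7 of the 19 GABA A receptor subunit genes listed for the mouse, and none lies in the triplicated segment. Ts66Yah mice are a model of Down syndrome in which a freely segregating minichromosome adds a copy of the distal part of Mmu16. The groups were 5 wt and 6 Ts66Yah males at 5 to 6 months of age, and each mouse gave a HIP and an EC library, so that 22 libraries came from 11 animals. The labels name no treatment, and the wt animals were littermate controls without the minichromosome. The line goes back to 1 founder, and wt and Ts66Yah mice shared a mixed background of C57BL/6J and a sighted C3H line. C57BL/6J mice are known to carry a small intronic deletion in Gabra2 that lowers its mRNA in the brain. Which Gabra2 alleles the animals carried is not given in the sources used here and was not tested.

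GABA A receptors are chloride channels of pentameric structure that open when GABA binds, and they carry most of the fast inhibition in the forebrain. A typical receptor joins alpha and beta subunits with a gamma subunit or with delta. Gabra2 and Gabra3 encode alpha subunits found mostly at synapses, Gabra5 encodes an alpha subunit that is abundant in hippocampal pyramidal cells and serves tonic inhibition, and Gabra4 and Gabrd encode partners in extrasynaptic receptors of dentate granule cells. Gabrb1 and Gabrb2 encode beta subunits, which line the GABA binding site together with alpha and are needed for the receptor to reach the membrane.

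All members share the Cys-loop, a stretch of the extracellular domain closed by a bond between 2 cysteines that gives this receptor superfamily its name. Its coding bases are shown because the domain is conserved among these paralogs, and reads of near-identical genes could be split between them. The sequences below are coding strand bases of GRCm38 transcripts (GENCODE M21), 5′ to 3′, with the codons of the cysteines in capitals. Each stretch lies in 1 coding exon, exon 5 or exon 6 of the transcript.
Gabra2 (chr5:71012720-71012764, minus strand): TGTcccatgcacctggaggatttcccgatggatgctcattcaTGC
Gabra3 (chrX:72476245-72476289, minus strand): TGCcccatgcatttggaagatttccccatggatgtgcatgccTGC
Gabra4 (chr5:71640847-71640891, minus strand): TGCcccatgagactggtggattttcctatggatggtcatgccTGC
Gabra5 (chr7:57452964-57453008, minus strand): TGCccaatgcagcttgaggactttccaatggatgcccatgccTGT
Gabrb1 (chr5:72029846-72029890, plus strand): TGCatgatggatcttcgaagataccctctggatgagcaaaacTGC
Gabrb2 (chr11:42529431-42529475, plus strand): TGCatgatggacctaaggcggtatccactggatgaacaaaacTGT
Gabrd (chr4:155387877-155387921, minus strand): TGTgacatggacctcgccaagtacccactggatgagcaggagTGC
Of the 45 bases, 19 were the same in all 7 genes. The 4 alpha subunits differed from each other at 9 to 11 bases, and from the beta and delta subunits at 17 to 23. Over whole transcripts, no 50-base stretch of a member occurred in another GABA A receptor subunit in the same orientation. In that orientation, 0.548% of the 50-base stretches of Gabra2 and 0.205% of those of Gabra3 also occurred in other genes, and none of those of the other 5 members did. In the opposite orientation the shares were 3.59% for Gabra5 (1 gene, Gm9962), 0.47% for Gabra2 and 0.154% for Gabra3.

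The genes lie on 5 chromosomes. Gabra2 (ENSMUSG00000000560, chr5:70957597-71095849), Gabra4 (ENSMUSG00000029211, chr5:71569749-71658308) and Gabrb1 (ENSMUSG00000029212, chr5:71658113-72149037) form a cluster on chromosome 5 in which Gabra4 and Gabrb1 stand head to head on opposite strands and share 46 exonic bases. Gabra5 (ENSMUSG00000055078, chr7:57407672-57510059) shares 148 exonic bases with the antisense gene Gm9962. Gabra3 (ENSMUSG00000031343, chrX:72432681-72656848) contains Mir767, Mir105, Gm23461 and Gm14735, and Gabrb1 contains Gm15617, Gm15616 and Gm38562, all without shared exonic bases. Gabrb2 (ENSMUSG00000007653, chr11:42419757-42629028) and Gabrd (ENSMUSG00000029054, chr4:155384980-155398112) overlap no annotated gene. Whether the counting used strand is not stated, so the few reads from shared exonic bases cannot be told apart between partners.

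Library totals were 25.9 to 50.1 M counts (median 34.7 M), and all 7 members passed the filter on low counts in every comparison. Libraries of a group were never closer than a chi-square of 10.5 per gene, far beyond sampling noise. Each library of a group came from another animal. The tissue labels were checked against marker lists. Of 6 dentate granule cell markers, 5 were lower and 1 was higher in the EC in both genotypes. All 6 together gave 378 to 459 CPM (read counts scaled to the library total) in HIP libraries against 195 to 263 CPM in EC libraries. Their median log2 fold change was -4.345 in wt and -4.051 in Ts66Yah, so the sums show the 5 lower markers only in part. Of 7 neocortical layer markers, 5 were higher in the EC in both genotypes, with sums of 215 to 285 CPM in the HIP and 532 to 782 CPM in the EC. Oligodendrocyte markers (7 of 7 lower in the EC) summed to 7282 to 10591 CPM in the HIP and 1417 to 3520 CPM in the EC, and choroid plexus markers (7 of 7 lower in the EC) to 111 to 3305 CPM and 10.3 to 42.8 CPM. The sums of the lists for CA1 and CA3 pyramidal cells overlapped between the regions. Of 5 CA1 markers, 3 were higher and 2 lower in the EC in both genotypes. Their sums were 776 to 976 CPM in the HIP and 768 to 887 CPM in the EC. Of 5 CA3 markers, 1 was higher and 3 were lower in both genotypes, with sums of 154 to 211 CPM and 99.6 to 180 CPM. The median log2 fold change of the CA3 list was -0.980 in wt and -1.168 in Ts66Yah. No marker of these lists was at 0 throughout a group. In whole tissue, fewer cells of a type and less RNA per cell cannot be told apart, and the part of these lists in the regional results below was not tested. For Gabra2, 3 mice stood apart from the others in both regions.

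The coefficient of variation of Gabra2 between mice was 16.9% to 39.5% over the 4 groups. It was the highest among the members in 3 of them, and in Ts66Yah EC Gabra2 (22.7%) came after Gabrd (25.9%) and Gabra5 (24.1%). In the wt HIP it was measured at 196, 101, 257, 212 and 212 CPM, and in the wt EC at 176, 66.9, 253, 197 and 165 CPM. Replicate 2 was the lowest and replicate 3 the highest in both. In Ts66Yah mice it ran from 199 to 308 CPM in the HIP (median 218) and from 145 to 267 CPM in the EC (median 180), and replicate 3 gave the highest value in both regions. The remaining 8 mice, 3 wt and 5 Ts66Yah, lay at 196 to 225 CPM in the HIP (median 214) and 145 to 197 CPM in the EC (median 175). Their median was 2.12 times the level of wt replicate 2 in the HIP and 2.61 times in the EC. It was exceeded by wt replicate 3, 1.20-fold in HIP and 1.45-fold in EC, and by Ts66Yah replicate 3, 1.44-fold and 1.53-fold.

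**Figure D1:**
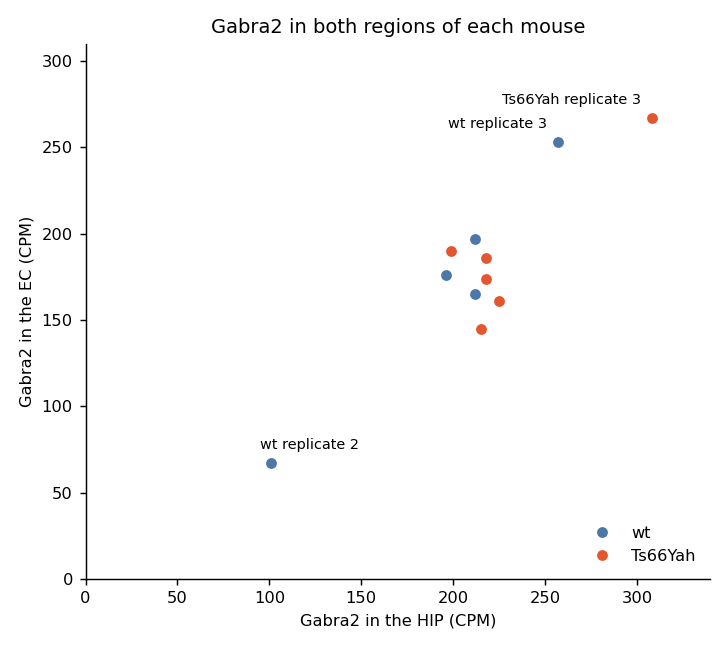
Gabra2 in the HIP (horizontal axis, CPM) against the EC (vertical axis, CPM) of each of the 11 mice, 5 wt in blue and 6 Ts66Yah in red. The low mouse (wt replicate 2, 101 and 66.9 CPM) and the 2 high mice (wt replicate 3 and Ts66Yah replicate 3) stand apart from the 8 others in both regions.

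Levels of different genes were compared per length, as CPM per kilobase of exon (RPKM). In wt HIP, Gabra5 was the most abundant member at 71.7 ± 4.41 RPKM (SD, n = 5). It was followed by Gabra2 at 25.6 ± 7.54 RPKM, Gabrb2 at 23.2 ± 2.88 RPKM, Gabra4 at 23.2 ± 1.95 RPKM, Gabrb1 at 17.8 ± 1.37 RPKM, Gabra3 at 17.5 ± 1.44 RPKM and Gabrd at 11.6 ± 0.981 RPKM. Gabra2, Gabrb2 and Gabra4 did not differ beyond their spread, nor did Gabrb1 and Gabra3.

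In wt EC the order was different. Gabra3 was the most abundant member at 74.3 ± 9.02 RPKM, followed by Gabra4 at 30.7 ± 2.84 RPKM, Gabrd at 27.8 ± 4.06 RPKM, Gabrb2 at 27.2 ± 4.76 RPKM, Gabra5 at 26.3 ± 3.0 RPKM, Gabra2 at 22.4 ± 8.86 RPKM and Gabrb1 at 14.3 ± 1.55 RPKM. From Gabra4 to Gabra2, neighbours in this order overlapped within their spread. The middle of the order depended on the length used. Per length of the longest transcript, Gabra4 had 45.4 ± 4.21 RPKM and Gabrb2 43.4 ± 7.60 RPKM in wt EC, above Gabrd at 29.5 ± 4.32 RPKM, Gabra5 at 29.3 ± 3.34 RPKM and Gabra2 at 29.3 ± 11.6 RPKM, while Gabra3 remained first and Gabrb1 last. In Ts66Yah mice, Gabra5 led the HIP at 76.4 ± 4.41 RPKM (SD, n = 6) and Gabra3 led the EC at 69.7 ± 4.60 RPKM.

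The first comparison asked how the members differ between the EC and the HIP, and it was made separately in wt and in Ts66Yah mice, which share no library. Gabra3 was more than 4-fold higher and Gabrd more than 2-fold higher in the EC, Gabra4 was moderately higher, and Gabra5 was well below its HIP level, in both genotypes. Gabrb1 was slightly lower in the EC. With edgeR's quasi-likelihood test and Benjamini-Hochberg adjustment over all genes tested, 5 of 7 members passed 0.05 in wt mice (3 higher, 2 lower), where 47.7% of 17935 genes passed (23.4% higher and 24.3% lower). In Ts66Yah mice 6 of 7 passed (4 higher, 2 lower), where 54.0% of 18043 genes passed (26.4% higher and 27.5% lower). Passing the threshold was thus common among all genes, and 7 members are too few to set their share against that background. The size of the difference, on the log2 scale and without sign, had a median of 0.40 over the members in wt and 0.38 in Ts66Yah, and of 0.30 and 0.29 over all genes tested.

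Gabra3 was measured at 68.3, 76.5, 62.7, 64.3 and 72.1 CPM in wt HIP and at 288, 256, 289, 350 and 275 CPM in wt EC. Every EC library lay above every HIP library. This was a 4.25-fold difference (95% interval 3.72 to 4.85, adjusted p = 2.52e-09), or 2.09 ± 0.09 (SE) on the log2 scale. In Ts66Yah mice the HIP libraries ran from 54.5 to 77.1 CPM (median 64.1) and the EC libraries from 249 to 296 CPM (median 274). The groups were again apart, by 4.15-fold (3.64 to 4.72).

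Gabrd, whose receptors respond to low ambient GABA, was measured at 32.4, 30.7, 35.6, 37.1 and 31.2 CPM in wt HIP and at 71.0, 91.2, 79.1, 66.2 and 92.2 CPM in wt EC. Here too the regions did not overlap, and the fold was 2.40 (2.06 to 2.78, adjusted p = 5.70e-07). In Ts66Yah mice Gabrd ran from 25.7 to 35.2 CPM (median 30.6) in the HIP and from 49.6 to 103 CPM (median 70.0) in the EC, a fold of 2.35 (1.90 to 2.91, adjusted p = 4.83e-06). The EC values of Ts66Yah mice were widely scattered, with a coefficient of variation of 25.9%, against 11.6% in the HIP of the same animals.

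Gabra4, the usual alpha partner of delta in granule cells, rose less. It was measured at 140, 158, 126, 145 and 137 CPM in wt HIP and 181, 189, 175, 216 and 173 CPM in wt EC, a 1.32-fold difference (1.18 to 1.48, adjusted p = 0.000784). In Ts66Yah mice the values were 141 to 158 CPM (median 143) and 161 to 212 CPM (median 193), a fold of 1.30 (1.20 to 1.42, adjusted p = 6.09e-05). The libraries of the regions did not overlap in either genotype.

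Gabra5 was lower in the EC by the widest margin among the members. It was measured at 213, 210, 194, 229 and 221 CPM in wt HIP and at 82.2, 74.3, 76.8, 90.9 and 67.1 CPM in wt EC. The HIP level was 2.72 times the EC level, and the log2 difference was -1.44 ± 0.08 (SE), with an adjusted p of 2.71e-08. In Ts66Yah mice the values were 217 to 251 CPM (median 222) and 58.9 to 111 CPM (median 82.2), and the HIP level was 2.64 times that of the EC (adjusted p = 4.40e-07). Every HIP library exceeded every EC library in both genotypes. Gabra3, Gabra4, Gabra5 and Gabrd were thus the 4 members whose regions did not overlap, a state shared by 35.4% of genes tested in wt and 32.2% in Ts66Yah.

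The beta subunits differed less and overlapped between regions. Gabrb1 was measured at 247, 255, 213, 257 and 257 CPM in wt HIP and 216, 191, 187, 223 and 171 CPM in wt EC. It was lower in the EC, at 0.805 of the HIP level (0.712 to 0.909, adjusted p = 0.00658), and in Ts66Yah mice at 0.824 (0.724 to 0.938, adjusted p = 0.0140). Gabrb2 was measured at 171, 154, 132, 155 and 127 CPM in wt HIP and 177, 194, 169, 201 and 124 CPM in wt EC, where replicate 5 was the lowest in both. The wt fold of 1.17 (0.976 to 1.41) did not pass the test (adjusted p = 0.143). It passed without wt replicate 5 (log2 fold change 0.28, adjusted p = 0.0259) and when each mouse was made a block (0.22, adjusted p = 0.0239). In Ts66Yah mice Gabrb2 was higher in the EC, by 1.27-fold (1.10 to 1.47, adjusted p = 0.00714).

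Gabra2 did not pass in either genotype. The log2 fold change, EC minus HIP, was -0.19 ± 0.30 in wt (SE, adjusted p = 0.638) and -0.31 ± 0.13 in Ts66Yah (adjusted p = 0.0687). With the animal as a block it passed in both, at -0.24 ± 0.08 in wt (adjusted p = 0.0250) and -0.32 ± 0.06 in Ts66Yah (adjusted p = 0.00136). Under the block all 7 members passed in both genotypes, as did 53.3% of all genes tested in wt and 59.0% in Ts66Yah. Without Ts66Yah replicate 3 the unblocked value passed in Ts66Yah mice (-0.33, adjusted p = 0.00240).

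**Figure D2:**
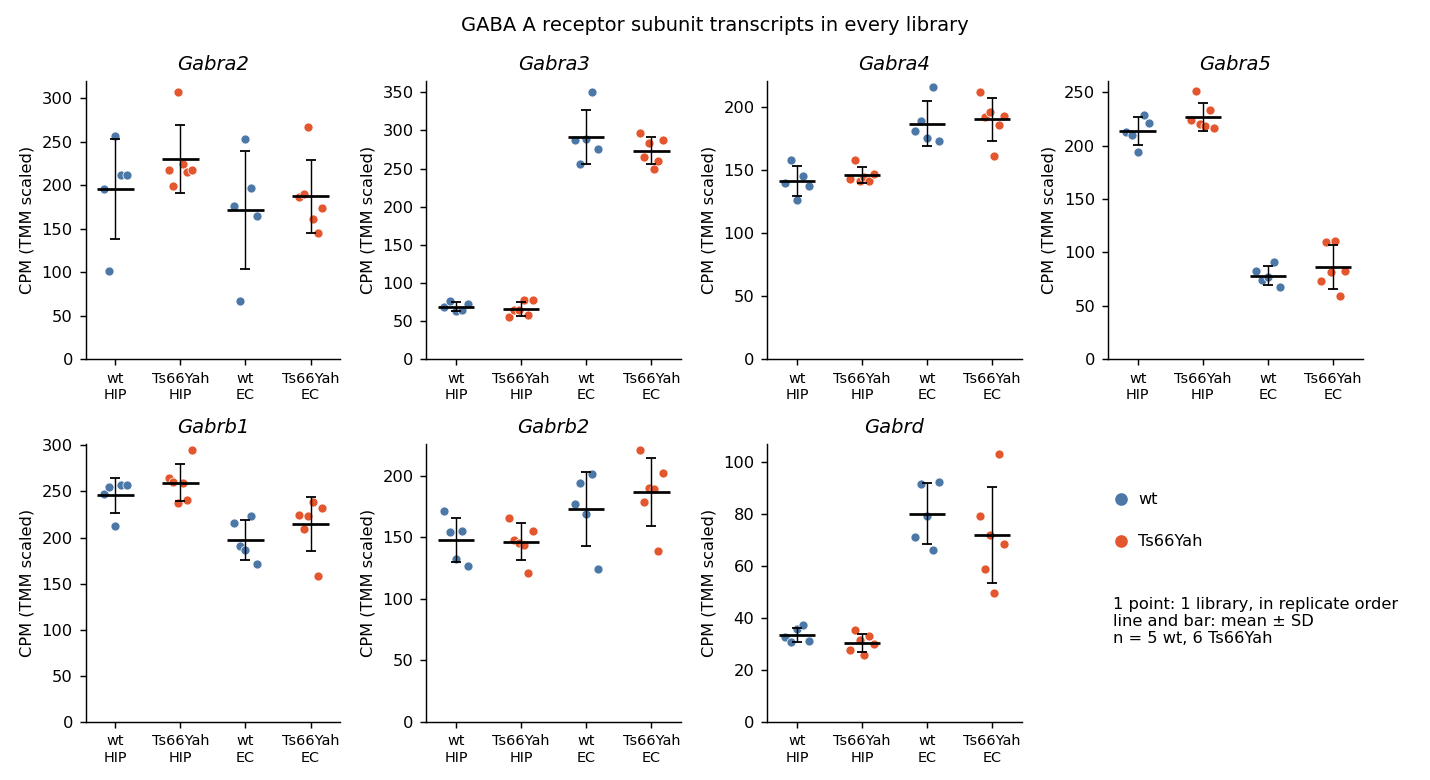
Level of each member in CPM (scaled by TMM factors) in the 22 libraries; each point is 1 library, horizontal lines and bars are the mean ± SD of a group (n = 5 wt in blue, 6 Ts66Yah in red), and every axis starts at 0. Gabra3 lies at 54.5 to 77.1 CPM in the HIP and 249 to 350 CPM in the EC, Gabra5 shows the opposite order, and the genotypes overlap in every panel.

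The second comparison asked whether the trisomy goes with a change of these transcripts. No member passed in the HIP, where 0.591% of 18452 genes did, and none passed in the EC, where 0.283% of 17658 genes did. None of the 7 had an unadjusted p under 0.05 in edgeR in either region, and DESeq2 also called 0 in both. The genotypes overlapped for every member in both regions, whereas 1.87% of genes tested in the HIP and 0.957% in the EC had groups that did not overlap. The intervals limit how large a change could have been. In the HIP, Ts66Yah over wt was 1.07-fold for Gabra5 (95% interval 0.988 to 1.15), 1.03-fold for Gabra4 (0.948 to 1.12), 1.06-fold for Gabrb1 (0.961 to 1.16), 0.993-fold for Gabrb2 (0.874 to 1.13), 0.956-fold for Gabra3 (0.833 to 1.10) and 0.909-fold for Gabrd (0.806 to 1.03). Their adjusted p-values ran from 0.507 to 0.980. Gabra2 had the widest interval at 1.18-fold (0.901 to 1.55, adjusted p = 0.652).

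In the EC the intervals were wider. Ts66Yah over wt was 1.10-fold for Gabra5 (0.886 to 1.38), 1.02-fold for Gabra4 (0.910 to 1.14), 1.09-fold for Gabrb1 (0.931 to 1.26), 1.08-fold for Gabrb2 (0.892 to 1.30), 0.937-fold for Gabra3 (0.835 to 1.05), 0.896-fold for Gabrd (0.710 to 1.13) and 1.09-fold for Gabra2 (0.749 to 1.59). Adjusted p-values ran from 0.942 to 0.990. Leaving Gabra2 aside, the upper bounds reached at most 1.16-fold in the HIP and 1.38-fold in the EC. The lowest of the lower bounds was that of Gabrd in both regions, at 0.710-fold in the EC. The members' median log2 fold change was 0.042 for HIP and 0.109 for EC, and over all genes tested it was 0.000 and -0.004. The difference of the genotype effects between the regions, tested over all 22 libraries, was called for 0 members and for 0% of 19074 genes, of which 388 had an unadjusted p under 0.05 and none of these was a member. DESeq2 called 0 genes as well, with 560 at an unadjusted p under 0.05. The members' differences ran from -0.11 for Gabra2 (95% interval -0.81 to 0.58) to 0.12 for Gabrb2 (-0.22 to 0.46) on the log2 scale. This fit had no term for the animal, although each mouse gave a library of both regions. With the animal as a block, 0 members were called, and the difference for Gabra2 was -0.069 ± 0.108 (SE).

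**Figure D3:**
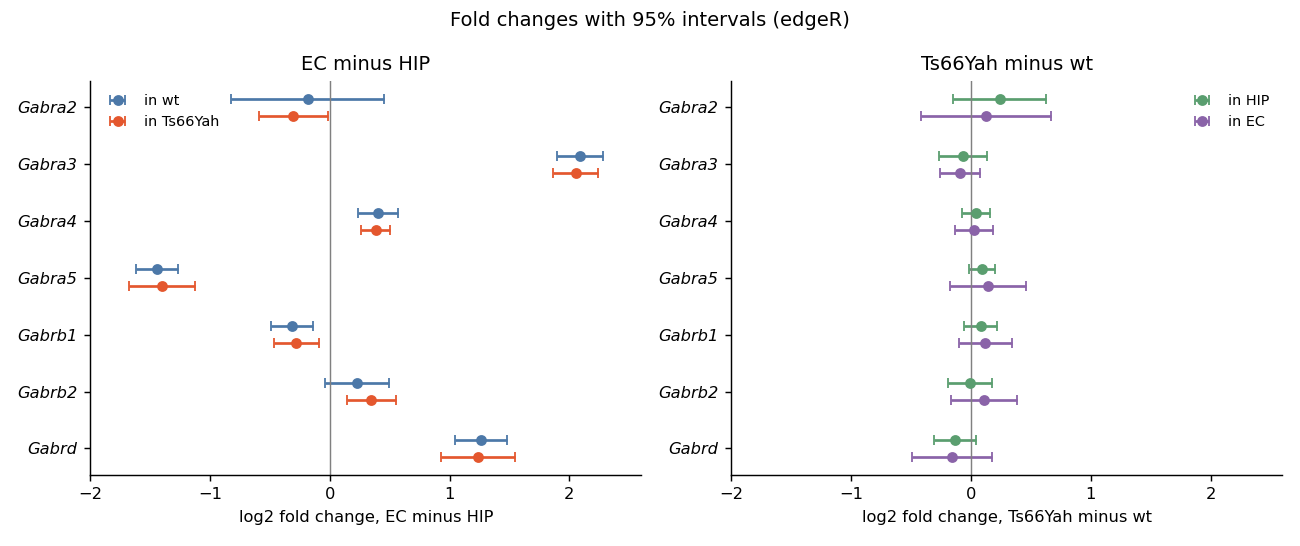
Log2 fold changes of the 7 members with their 95% intervals from edgeR, for EC minus HIP (left; blue in wt, red in Ts66Yah) and for Ts66Yah minus wt (right; green in the HIP, purple in the EC), on the same scale. The regional differences reach 2.09 for Gabra3 and -1.44 for Gabra5, while all genotype intervals include 0.

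The genotype comparison of Gabra2 leaned on the mice that stood apart. Without wt replicate 2, its log2 fold change was 0.07 for HIP and -0.08 for EC, against 0.24 and 0.12 with all mice. Without wt replicate 3 it was 0.36 and 0.32, and it passed in none of these.

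For the other 6 members it was asked whether a mouse with a high level in the HIP also had one in the EC. Gabra2 was left out, since its mice fell into separate levels. The values were log2 CPM as deviations from the group mean, and the exact test permuted the mice within genotype. Gabrb2 showed the closest relation, with r = 0.83 and rho = 0.82 (exact p = 0.00404, adjusted over all genes 0.111, n = 11), and r was 0.55 without the 2 mice farthest from the median. Gabrb1 (r = 0.38), Gabra4 (0.30), Gabra5 (0.17), Gabrd (0.08) and Gabra3 (-0.43) had exact p-values from 0.138 to 0.857. None passed after adjustment over 17232 genes, of which 0.934% did, and the median r over all genes was 0.30.

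Within a region, the 21 pairs of members were compared over the 11 mice, and 1 pair passed the test after adjustment over all 17231 other genes. In the EC, libraries with more Gabra5 had less Gabrd (r = -0.96, rho = -0.97, exact p = 1.16e-05, the smallest that these permutations can give, adjusted p = 0.0249 over the genes compared with Gabra5 and 0.0285 over those compared with Gabrd, n = 11). The relation was kept without the 2 mice farthest from the median of Gabra5 (r = -0.92) and among the 6 mice of one range of animal numbers (r = -0.96). Another range held only 4 mice, too few for an r. In Ts66Yah EC, the lowest Gabra5 (replicate 5, 58.9 CPM) came with the highest Gabrd (103 CPM), and the highest Gabra5 (replicate 4, 111 CPM) with the lowest Gabrd (49.6 CPM). In the HIP the pair was not related in this way (r = 0.47, rho = 0.42, exact p = 0.167, adjusted p = 0.807). Of the 17231 genes, 0.377% passed against Gabra5 and 0.493% against Gabrd in the EC.

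Markers of cell types moved with both genes in the EC. Gabrd rose with the mean of 10 GABAergic interneuron markers (r = 0.91) and of 4 measured CA3 pyramidal markers (r = 0.94), and Gabra5 went against both (r = -0.88 and r = -0.95, n = 11 throughout). The lists that bear on dissection moved the same way less closely, with r = 0.67 for Gabrd and -0.65 for Gabra5 over 7 neocortical layer markers, and 0.62 and -0.71 over 6 thalamus markers. The other 10 lists of cell type markers had r between -0.47 and 0.54 with either gene. Among them were other hippocampal lists. Dentate granule cell markers had r = 0.195 with Gabrd and -0.238 with Gabra5, and CA1 pyramidal markers -0.315 and 0.437. Only 3 of the 6 dentate markers entered, those with a mean of at least 1 CPM in the EC. The summed CA3 list in the HIP, 154 to 211 CPM, overlapped that of the EC. Yet 3 of its 5 markers were lower in the EC. The median log2 fold change of the list, EC minus HIP, was -0.980 in wt and -1.168 in Ts66Yah. The summed interneuron markers ran from 1171 to 1452 CPM in the EC, the neocortical layer markers from 532 to 782 CPM, the thalamus markers from 119 to 157 CPM and all 5 listed CA3 markers from 99.6 to 180 CPM, with none at 0 throughout a group. The share of mitochondrial counts in the EC had r = -0.67 with Gabra5 and r = 0.65 with Gabrd, and these fell to -0.06 and -0.03 without the 2 farthest mice. The part of these measures in the relation was not tested. In the HIP, Gabrd rose with 6 glutamatergic neuron markers (r = 0.93) and 6 dentate granule cell markers (r = 0.76), and Gabra5 went against the total count of the library (r = -0.85).

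**Figure D4:**
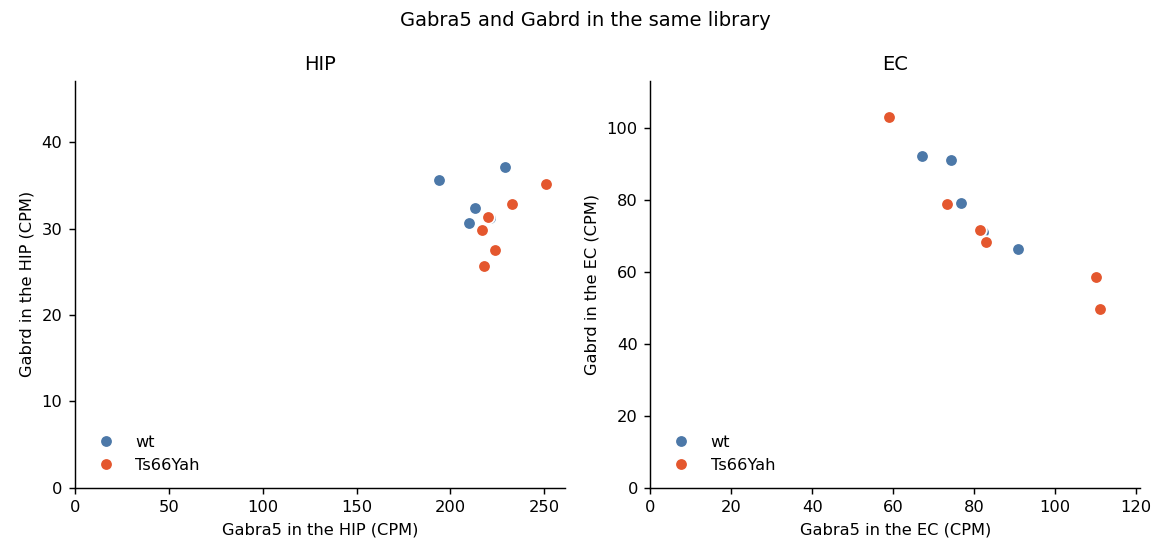
Gabra5 (horizontal axis, CPM) against Gabrd (vertical axis, CPM) in the 11 HIP libraries (left) and the 11 EC libraries (right), wt in blue and Ts66Yah in red, where close points partly cover each other. In the EC the points fall along a descending line in both genotypes (r = -0.96 after removal of the group means), and in the HIP they do not (r = 0.47).

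The remaining pairs did not pass. Leaving out the pairs with Gabra2, those with an unadjusted exact p under 0.05 were all in the EC, and each changed without the 2 mice farthest from the median of 1 gene of the pair. The r of Gabrb1 with Gabrb2 was 0.82 and fell to 0.40 by either gene. For Gabrb1 with Gabrd it was -0.80, and -0.50 or -0.55 without those mice. For Gabra5 with Gabrb1 it was 0.71, and 0.32 or 0.23. For Gabra3 with Gabra4 it was 0.76, and 0.87 by Gabra3 or 0.23 by Gabra4. Gabrb1 had the broadest company in the EC, where 842 of 17231 genes (4.89%) passed against it. Its r with the share of mitochondrial counts in the EC was -0.77, and 0.22 without the 2 mice farthest from the median of that share. Its lowest Ts66Yah EC library, at 158 CPM, was also flagged as far from the others. The part of these in the 842 genes was not tested.

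Genes whose pattern over the 11 mice was most like that of a member were listed as a description, using the mean deviation over both regions and 14379 genes. These were Sri (r = 0.94) and Bid (0.91) for Gabra2, where the 3 mice that stood apart enter the value, Shq1 (0.94) and Cdadc1 (0.90) for Gabra3, and Retreg1 (0.94) and Hs2st1 (0.94) for Gabra4. For Gabra5 they were Zwint (0.97) and Ttpal (0.95), for Gabrb1 Cenpc1 (0.96) and Xkr4 (0.96), for Gabrb2 Zdhhc17 (0.99) and Zdhhc20 (0.98), and for Gabrd Gstm7 (0.95) and Stard10 (0.93). The points share the libraries and their depth.

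Of the other 12 GABA A receptor subunits, 7 were tested in the wt regional comparison, of which 5 were higher in the EC, 1 was lower (Gabrr2, named after its values were seen) and 1 did not pass. Of 9 genes for GABA synthesis, uptake and breakdown, 5 were higher and 0 lower. Of 7 genes for GABA B receptors and chloride transport, 4 were higher and 2 lower, and of 21 genes for receptor clustering and trafficking, 8 were higher and 6 lower. Over all 17935 genes tested in wt, 23.4% passed as higher in the EC and 24.3% as lower. The lists are small, and their counts were not tested against these shares. The widest differences at 1 CPM or more were those of Slc6a13, a GABA transporter, with 4.75 ± 0.724 CPM in wt HIP and 14.3 ± 3.72 CPM in wt EC (SD, n = 5, log2 fold change 1.58, adjusted p = 1.37e-05), and of Slc12a2, the chloride importer NKCC1, with 119 ± 23.8 CPM and 48.5 ± 9.65 CPM (-1.29, adjusted p = 2.01e-05). Gabrg1, a gamma subunit (0.68), and Hap1, a partner in receptor trafficking (0.67), were also higher in the EC. Kctd12, an auxiliary subunit of GABA B receptors (-0.83), and Plcl1, a binding partner of beta subunits (-0.48), were lower.

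In Ts66Yah mice these 6 genes had the same direction, and Slc6a13 did not pass there (0.81, adjusted p = 0.0739). No gene of the 4 lists passed for genotype in the HIP or the EC, nor for the difference of the genotype effects between regions, with edgeR. An unadjusted p under 0.05 was reached in the HIP by 2 of the 7 other subunits tested, 2 of 9 genes for GABA synthesis, uptake and breakdown, 1 of 7 for GABA B receptors and chloride transport and 0 of 21 for clustering and trafficking. In the EC these numbers were 0 of 6, 0 of 9, 0 of 7 and 2 of 21. Over all genes tested, the HIP had 2188 of 18452 with such a p, and the EC 1103 of 17658.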

How the data were processed

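RNA-Seq libraries were made from the HIP and the EC of 11 male mice, and the labels gave the group, replicate and animal number of each. According to the study's methods, single-end reads were aligned by Hisat2 (GRCm38), and HTSeq-count assigned them to Ensembl genes. Tool versions, the strand setting and the treatment of multi-mapping reads are not given in the sources used here. The labels describe poly(A) selection with a stranded kit, whereas the methods also name a ribosomal depletion kit. The labels' processing notes name bcl2fastq 2.17.1.14 and DESeq2. The authors deposited raw counts per gene, as whole numbers, for 22 libraries, and 0 columns were left unmapped. Their tables of fold changes and p-values per gene were not used.

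The members and gene lists were chosen with earlier results of these data known. Symbols and lengths came from GENCODE M21 (GRCm38), which held 55144 of the 55385 gene identifiers. Counts were tested in edgeR 4.0.16 under R 4.3.3, with TMM factors, filterByExpr, the quasi-likelihood test and adjustment over all genes tested (threshold 0.05). Regions were fitted separately for genotype, and genotypes separately for region. CPM used TMM factors over all libraries, log2 CPM a prior count of 2, and RPKM the union of exons. Correlations over mice used deviations from group means and an exact two-sided permutation within genotype. The HIP and EC libraries of a mouse were paired by animal number, and their deviations correlated at 0.208 to 0.643. Named genes were all members, genes overlapping a member, listed pathway genes called for genotype or its difference between regions, the 3 listed pathway genes most different between wt regions in each direction at 1 CPM or more, and the 2 genes most like each member. Member pairs, marker correlations, levels per longest transcript and the separation of 8 mice for Gabra2 were chosen after seeing the data. The fits and the permutation test were tested on simulated data. Alternatives were DESeq2 1.42.0, RLE factors, no filter or one at 1 CPM, blocks by replicate number, by animal or by range of animal numbers, all libraries in one fit, and leaving out each replicate. Shares of the subunits within their class are not reported here.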

Additional observations from a re-analysis of the deposited data

Results flagged for a closer look

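Within groups, 28 sets of values were screened for a library far from the others by Dixon's ratio, which flags about 1 in 20 groups by chance, and 5 were found. Gabra2 was highest in Ts66Yah replicate 3 in both regions, at 308 CPM in the HIP and 267 CPM in the EC. The screen did not flag wt replicate 2 or wt replicate 3 for Gabra2, which were set apart after seeing the values. Gabra4 reached 158 CPM in Ts66Yah replicate 2 in the HIP. Gabrb1 was lowest in wt replicate 3 in the HIP, at 213 CPM, and in Ts66Yah replicate 5 in the EC, at 158 CPM. Ts66Yah replicate 5 was also the EC library with the least Gabra5 (58.9 CPM) and the most Gabrd (103 CPM).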

How the results depend on the processing

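The counts of members past the threshold stayed at 0 for genotype in both regions, for the genotype effect by region and for HIP and EC of one mouse, under every alternative run. They ranged from 5 to 7 for the regions in wt and from 6 to 7 in Ts66Yah. The permutation test of HIP against EC called 161 of 17232 genes with all mice and 0 without any 1 of them. Fewer orders are possible with 10 mice, and the part of this in the drop was not tested. Since no gene was called in these runs, their 0 for members does not show whether that result is stable. Between wt and Ts66Yah samples of the same replicate number, correlations of deviations ran from -0.00240 to 0.289. For the HIP and EC of one mouse they ran from 0.208 to 0.643. Whether a replicate number marks a shared step was not tested. With the replicate block for genotype, 61 in place of 109 genes were called in the HIP and 39 in place of 50 in the EC. DESeq2 called 370 and 108. The block by animal number range, which drops wt replicate 1 as the lone animal of its range, called 68 in the HIP, and a fit of all 22 libraries called 79 in the EC. The animal block changed no call of a member other than those of Gabra2 and Gabrb2 given above.

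Signs changed where values were near 0, and the cause was not tested. The genotype log2 fold change of Gabrb2 in the HIP was 0.039 with the block by animal number range and -0.06 to 0.052 without each replicate in turn. In the EC it was -0.08 to 0.32 for Gabra2 and -0.008 to 0.09 for Gabra4. The log2 difference of genotype effects was -0.11 to 0.072 for Gabra3, -0.057 to 0.035 for Gabra4, -0.048 to 0.15 for Gabra5, -0.024 to 0.092 for Gabrb1 and -0.13 to 0.08 for Gabrd. The HIP and EC correlation was -0.207 to 0.389 for Gabra5 and -0.403 to 0.297 for Gabrd. For Gabra2 it was 0.952 over all 11 mice, 0.753 without the 2 farthest and -0.271 in the 8 mice left without the 3 that stand apart. Those 8 were picked for their like levels, which takes away most of the variation, so that the last value bears on no relation.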
